A study of Mus musculus with 4 samples.

Results

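The 10 genes described here are Ccn1 to Ccn5, which encode secreted CCN proteins, and 5 genes of the YAP-TEAD axis: the coactivator genes Yap1 and Wwtr1, the DNA-binding factor genes Tead1 and Tead4, and the target gene Ankrd1. They were chosen by name, with earlier results of the same shLSD1 against shControl comparison known, the lower Ccn2 signal among them. Their values in that comparison are therefore given as a description, and their number of calls supports nothing by itself. All 10 genes had a probe set assigned to that gene alone. They held 21 of the 34945 such probe sets on the array and made up 10 of 18193 genes. The cells were C2C12, an immortalised mouse myoblast line, and every group was stably transfected with a SureSilencing plasmid and selected with hygromycin. The shLSD1 group (2 arrays) carried a short hairpin RNA against LSD1, and the shControl group (2 arrays) carried a non-targeting one. Growth medium held 25 mM glucose, 10% fetal bovine serum and 750 µg/mL hygromycin B, and differentiation was started with 2% horse serum at the same glucose, 48 hours before RNA isolation. The labels name 1 plasmid for each hairpin and no separate selections or cultures. The knockdown and the selection of a cell population therefore cannot be told apart, and p-values measure only how far these arrays of a group differ, possibly for technical reasons alone.

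YAP (from Yap1) and TAZ (from Wwtr1) are coactivators without a DNA-binding domain of their own. They enter the nucleus when the kinases of the Hippo pathway are inactive and act through TEAD factors, which bind a GGAATG-type element, known in muscle promoters as the MCAT element. Ccn1, Ccn2 and Ankrd1 are the classic readouts of this activity. CCN proteins are matricellular: they are secreted, bind integrins and heparan sulphate, and tune growth factor signalling in the matrix. In the muscle lineage, YAP is known to favour myoblast proliferation, TEAD4 is a known target of myogenic factors, and Ankrd1 encodes a muscle ankyrin repeat protein that is found in the sarcomere and the nucleus.

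Kdm1a, which encodes LSD1, had signals of 922 and 1035 on the shLSD1 arrays, against 4603 and 4588 on the shControl arrays. The log2 fold change measured -2.23, with an SE of 0.07 and an adjusted p = 2.91e-05 (limma, Benjamini-Hochberg over all tested genes), and its other probe set measured -2.50. Each array was scaled to the same trimmed mean of 500.003, median signals lay between 67.3 and 69.7, and correlations of log2 signals within a group were 0.991 for shLSD1 and 0.993 for shControl. Of 8 muscle markers, all were above the signal filter and 6 fell in shLSD1, against 7.09% of all tested genes. The summed signals of the 8 markers were 82243 and 87041 on the shLSD1 arrays, against 121668 and 121340 on the shControl arrays. Lists of adipocyte, osteoblast, tendon and fibroblast, endothelial, and leukocyte markers had 0 to 2 genes above the filter each, and 0 of these passed the test. Of 4 epithelial markers 2 were above the filter, and 1 of these rose, which was Cdh1 (named after its value was seen), at 1.38 (SE 0.25, limma adjusted p = 0.00998), a call lost in the absence of shControl replicate 2. The summed epithelial signals were 271 and 284 in shLSD1, against 161 and 169 in shControl. Cdh1 alone gave 153 and 139 in shLSD1, against 60.1 and 51.9 in shControl. Both shControl signals lay under the filter signal of 65.6, so Cdh1 was above the filter only through its shLSD1 arrays. Its fold change is therefore a description. The other markers were named after their values were seen. Krt8 measured 0.53 and was not called, and Epcam and Krt18, both below the filter, measured -0.45 and -0.40. The part of these markers in the results on the CCN and YAP-TEAD genes was not tested.

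Sequence 5′ of the start site was at hand from RefSeq (GRCm38.p6) for 4 of the 10 genes. The 250 bases before the start are shown for Ccn1, whose signal was lower in shLSD1, and for Ankrd1, whose signal was not, because both are read as YAP-TEAD targets. Ccn1 lies on chromosome 3, minus strand (window chr3:145649986-145650235), and Ankrd1 on chromosome 19, minus strand (window chr19:36119845-36120094). Capitals mark each GGAATG or its reverse complement CATTCC.
Ccn1: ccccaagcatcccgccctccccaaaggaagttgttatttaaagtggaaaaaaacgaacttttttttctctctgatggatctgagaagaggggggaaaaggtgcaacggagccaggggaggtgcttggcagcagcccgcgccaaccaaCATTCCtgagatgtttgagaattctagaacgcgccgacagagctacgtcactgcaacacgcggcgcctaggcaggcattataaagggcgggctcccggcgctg
Ankrd1: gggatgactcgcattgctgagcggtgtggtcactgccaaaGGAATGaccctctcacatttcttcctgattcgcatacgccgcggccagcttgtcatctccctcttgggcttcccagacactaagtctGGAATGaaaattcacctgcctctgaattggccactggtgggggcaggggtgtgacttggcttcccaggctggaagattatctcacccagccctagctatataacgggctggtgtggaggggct

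The Ccn1 window held 1 match, starting 103 bases before the start site and read as CATTCC. The Ankrd1 window held 2, starting 210 and 123 bases before the start and both read as GGAATG. Yap1 had 1 match at 141 bases, and the overlapping windows of the 2 Wwtr1 start sites held the same match, at 170 and 136 bases. Of all 32851 windows of this length in the table, 12.6% held the hexamer on either strand. Of 15 windows for 13 other published YAP-TEAD target genes, 4 held it, those of Amotl2, Axl, Crim1 and Ptpn14. The AP-1 motif TGANTCA reads the same on both strands, and the CArG box is the binding element of SRF. Both had 0 matches in the 5 windows of Ccn1, Ankrd1, Yap1 and Wwtr1, against 6.75% and 1.47% of all windows. Those 5 windows are too few for a comparison with these shares. Of the 15 windows of other target genes, 1 held the AP-1 motif and 0 the CArG box. A match is a run of letters and does not show that a factor binds there. The genes with a match differ in their signals, as the values below show.

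Of the 10 genes, 6 fell in shLSD1 and 0 rose by limma's test at an adjusted p under 0.05 over 10874 tested genes, where 7.09% of all genes fell, 8.75% rose and 15.8% did either. Those that fell were Ccn1, Ccn2, Ccn4, Ccn5, Tead4 and Wwtr1. On the array values themselves, 7 of the 10 genes had both shLSD1 signals below both shControl signals, and 0 had both above. Over all tested genes these shares were 29.4% and 30.7%. The median log2 fold change of the 10 genes was -0.38, and that of all tested genes was 0.00. All 10 genes were bright enough to be tested, with a mean log2 signal above the filter of 6.03, and so were all 21 of their probe sets. In these cultures, fewer cells that express a gene and less RNA per cell cannot be told apart. Over all genes the number of calls depended on single arrays: without shControl replicate 1, 228 genes fell and 354 rose, and without shControl replicate 2, 233 fell and 347 rose, against 771 and 951 with all arrays. Of the 10 genes, 5 fell without shControl replicate 1 and 4 without shControl replicate 2.

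**Figure D1:**
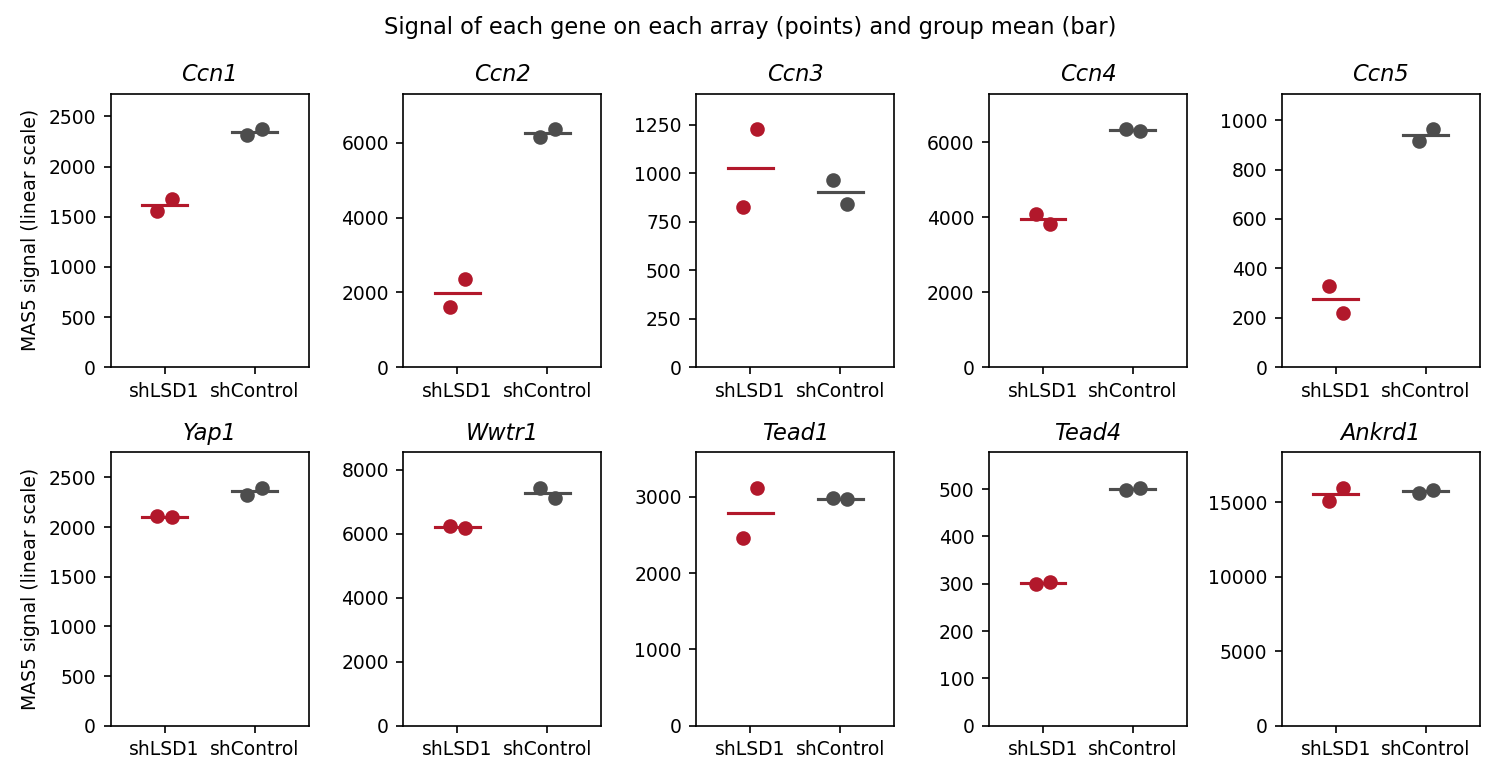
MAS5 signal (linear scale, axes from 0) of the representative probe set of each gene on each of the 2 shLSD1 (left, red) and 2 shControl (right, grey) arrays, with a bar at the group mean. Ccn2, Ccn5, Ccn4, Ccn1 and Tead4 are clearly separated, Ankrd1 is at the same height in both groups, and Ccn3 and Tead1 overlap.

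Of the 5 CCN genes 4 fell and 0 rose, with a median log2 fold change of -0.68. Over all tested genes 7.09% fell and 8.75% rose. The largest differences among the 10 genes were those of Ccn5 and Ccn2. Ccn2, formerly Ctgf, encodes connective tissue growth factor, a matrix-inducing CCN protein and a direct YAP-TEAD target. Its signals were 1613 and 2351 on the shLSD1 arrays, against 6167 and 6364 on the shControl arrays. Both shLSD1 arrays lay far below both shControl arrays, and the shLSD1 mean of the log2 signals corresponded to 31.1% of control. The log2 fold change was -1.69 (SE 0.15), and with either shLSD1 array alone it was -1.41 or -1.96. Ccn2 was represented by 1 probe set.

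Ccn5, formerly Wisp2, encodes the CCN protein that lacks the C-terminal cystine-knot domain and is known to oppose Ccn2 in several tissues. It gave 330.3 and 218 on the shLSD1 arrays, against 915 and 963 on the shControl arrays. The groups were well apart, at 28.6% of control and a log2 fold change of -1.81 (SE 0.18). Ccn5 also had 1 probe set. Its lower shLSD1 array was replicate 2, whereas that of Ccn2 was replicate 1, so the genes did not share the direction of the difference between shLSD1 arrays. That difference was 0.60 on the log2 scale for Ccn5 and 0.54 for Ccn2, against 0.07 and 0.05 between the shControl arrays.

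Ccn4, formerly Wisp1, encodes a CCN protein induced by Wnt signalling. Its signals were 4095 and 3814 on the shLSD1 arrays, against 6351 and 6301 on the shControl arrays. The arrays of each group were close together and the groups far apart, with a log2 fold change of -0.68 (SE 0.05), or 62.5% of control. Its other probe set read 3326 and 3123 in shLSD1 and 5313 and 5159 in shControl, a log2 fold change of -0.70. The call was made in all 13 alternative analyses, as were those of Ccn2 and Ccn5.

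Ccn1, formerly Cyr61, encodes an angiogenic, integrin-binding CCN protein and is the other classic YAP-TEAD target of the family. Its signals were 1554 and 1680 on the shLSD1 arrays, against 2311 and 2373 on the shControl arrays. The groups did not overlap, and the log2 fold change was -0.54 (SE 0.06), or 69.0% of control. The array carries 4 probe sets for Ccn1, and they differed. Of the 2 of the x_at type, which can cross-hybridise, one measured -0.49 and the other 0.05. The one at 0.05 shares a source sequence in the annotation table with the remaining probe set, which measured -0.12, and both had overlapping groups. Averaged over the 4 probe sets the log2 fold change was -0.27 and Ccn1 was no longer called.

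Ccn3, formerly Nov, encodes the CCN protein often described as antagonistic to Ccn2. It was the family gene with no shift between the groups. Its signals were 827 and 1226 on the shLSD1 arrays, against 965 and 843 on the shControl arrays. The shLSD1 arrays lay on either side of the shControl arrays, with a log2 fold change of 0.16 (SE 0.17). The second probe set, of the x_at type, also had overlapping groups, with 1284 and 1780 in shLSD1 and 1378 and 1288 in shControl. Its lower shLSD1 signal was nearly equal to its lower shControl signal. Without shLSD1 replicate 1 Ccn3 measured 0.44 and was called higher, so its place depends on that array. The remaining family gene, Ccn6, which is outside the 10 and was named after its values were seen, had 1 probe set below the filter, at 33.3 and 25.7 in shLSD1 and 21.3 and 23.9 in shControl.

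**Figure D2:**
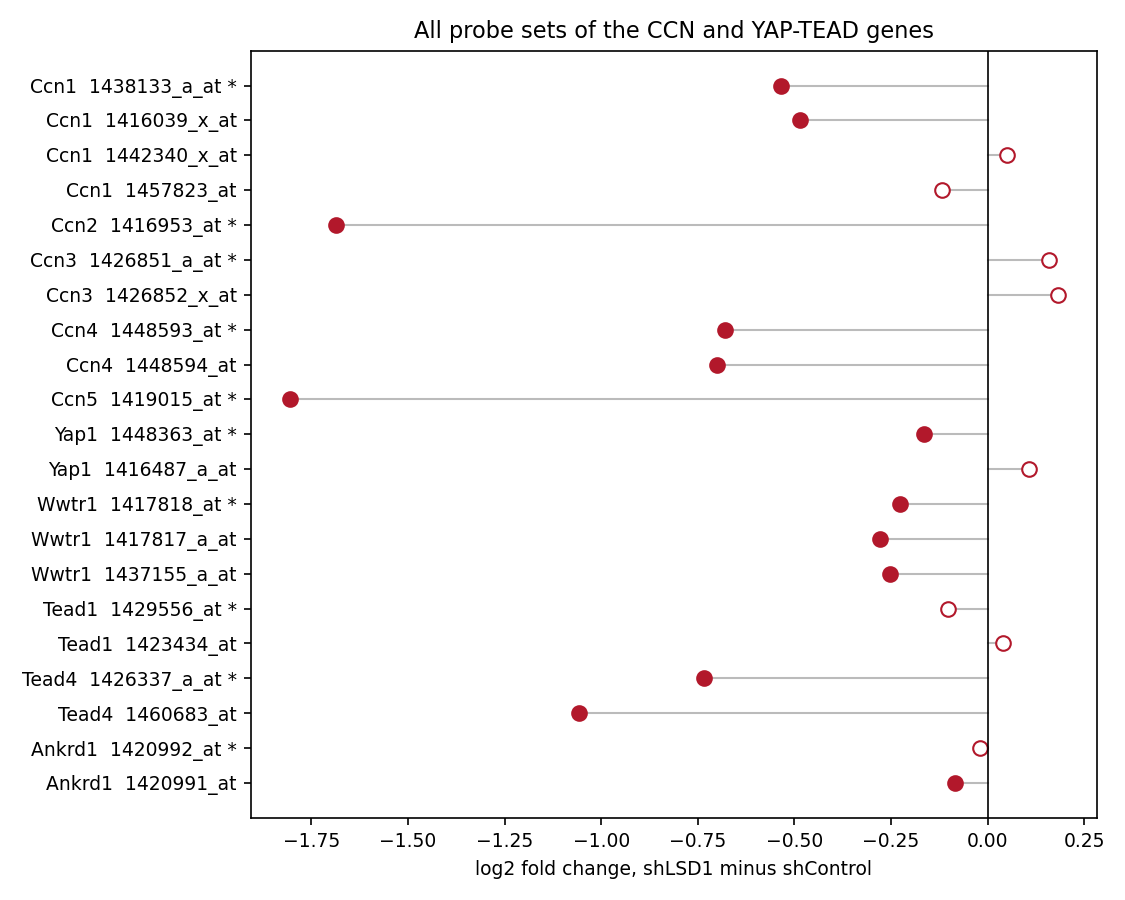
Log2 fold change (shLSD1 minus shControl) of all 21 probe sets of the 10 genes, with an asterisk at the representative one; filled points mark groups that do not overlap and open points groups that do. The 13 filled points all lie below 0, and the probe sets of Ccn1, Yap1 and Tead1 differ in sign or size. Probe sets of the same gene are not independent. Over all tested genes, with 1 probe set each, 29.4% had groups that did not overlap with shLSD1 lower, and 30.7% with shLSD1 higher.

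Of the coactivator genes, Wwtr1 fell and Yap1 did not pass the test. Wwtr1, which encodes TAZ, had signals of 6250 and 6173 on the shLSD1 arrays, against 7440 and 7109 on the shControl arrays. All 3 of its probe sets had non-overlapping groups, with log2 fold changes of -0.23 (SE 0.05), -0.28 and -0.25. The first of these, the representative one, corresponded to 85.4% of control. Wwtr1 was no longer called when either shControl array was left out, when the variance had no intensity trend, or when its probe sets were averaged. Yap1 gave 2109 and 2099 in shLSD1, against 2323 and 2397 in shControl. These groups did not overlap, but the log2 fold change of -0.17 (SE 0.06) did not pass the threshold. The other Yap1 probe set, with 372 and 401 in shLSD1 and 379 and 339 in shControl, measured 0.11 with overlapping groups.

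The TEAD genes did not move alike. Tead4, the TEAD gene tied most closely to muscle differentiation, gave 299 and 304 on the shLSD1 arrays, against 499 and 503 on the shControl arrays. The arrays of each group nearly coincided, and the log2 fold change was -0.73 (SE 0.11), or 60.1% of control. Its second probe set, at 136 and 111 in shLSD1 and 263 and 249.8 in shControl, measured -1.06. The Tead4 call was lost without shControl replicate 2, where the log2 fold change was -0.73 as well. Tead1, the broadly expressed TEAD gene, gave 2456 and 3118 in shLSD1, against 2982 and 2963 in shControl. The shLSD1 arrays lay on either side of the shControl arrays, and the log2 fold change was -0.10 (SE 0.10). Without shLSD1 replicate 2 Tead1 measured -0.28 and was called lower. Its second probe set measured 0.04.

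Ankrd1, the muscle-expressed target gene, showed no shift next to Ccn1 and Ccn2. Its signals were 15085 and 15975 on the shLSD1 arrays, against 15637 and 15832 on the shControl arrays. The shControl arrays lay between the shLSD1 arrays, and the log2 fold change was -0.02 (SE 0.04), with a range of -0.06 to 0.02 over the alternatives. The other probe set read 14381 and 15765 in shLSD1 and 16038 and 15880 in shControl, a log2 fold change of -0.08 whose groups did not overlap. Ankrd1 has 2 matches to the TEAD hexamer in the window printed above and Ccn1 has 1. The relative genes of the same protein family did not share this steady level. Ankrd2, which encodes a slow-fibre ankyrin repeat protein, gave 1795 and 1899 in shLSD1 and 4855 and 4996 in shControl, a log2 difference of -1.42 (SE 0.06, limma adjusted p = 3.27e-05). Ankrd23 fell by 0.63 (SE 0.10, limma adjusted p = 0.00613), but not past the threshold when either shControl array was left out. The difference between these folds and that of Ankrd1 was not tested.

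**Figure D3:**
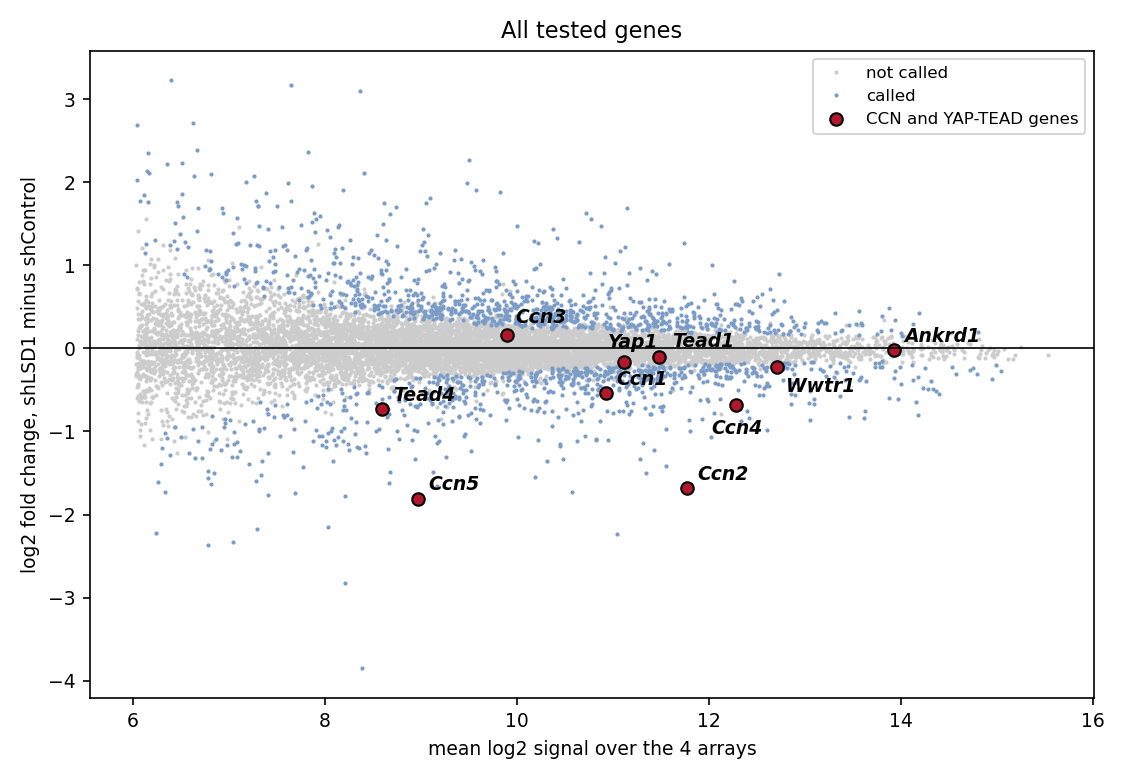
Log2 fold change (shLSD1 minus shControl) against the mean log2 signal over the 4 arrays for all 10874 tested genes; blue points are called and grey points are not, and red points are the 10 genes described here. Ccn2 and Ccn5 lie at the lower edge of the cloud for their signal, and Ankrd1 lies at about 0.

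Hippo kinases and their partners control where YAP and TAZ reside. In the kinase core, 16 of 17 listed genes were tested, and 1 rose and 1 fell. That is 12.5% called, near the 15.8% of all tested genes, and the median log2 fold change was 0.02. The kinase gene Lats2, itself a YAP-TEAD target, fell by 0.32 (SE 0.09, limma adjusted p = 0.0475), at 555.2 and 554.5 in shLSD1 against 678 and 705 in shControl. The kinase gene Taok3 rose by 0.38 (SE 0.10, limma adjusted p = 0.0387). Both calls were lost in 7 of 13 alternatives. Lats1, the paralogue of Lats2, measured 0.03 (limma adjusted p = 0.772), Stk38 0.19 (limma adjusted p = 0.0553) and the scaffold gene Frmd6 -0.18 (limma adjusted p = 0.0790).

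In the list of YAP and TAZ scaffolds and upstream inputs, 16 of 19 genes were tested, 3 fell and 0 rose, with a median of -0.11. That is 18.75% called, near the 15.8% of all tested genes. The protocadherin genes Fat1 and Fat4, which act at the cell surface upstream of Hippo signalling, had log2 fold changes of -0.46 (SE 0.05, limma adjusted p = 0.00157) and -0.71 (SE 0.16, limma adjusted p = 0.0214). Fat1 gave 2368 and 2358 in shLSD1, against 3210 and 3279 in shControl, and its groups were well separated. The angiomotin gene Amotl2, both a binding partner and a target of YAP, fell by 0.36 (SE 0.09, limma adjusted p = 0.0352), and Amotl1 measured -0.21 (limma adjusted p = 0.0616). The call of Fat1 was made in all 13 alternatives. Those of Fat4 and Amotl2 were lost without either shControl array and with no intensity trend. That of Amotl2 was also lost with no filter and with its probe sets averaged.

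Of 7 tested genes for the other TEAD factors and their cofactors, 0 were called, and 1 had an unadjusted limma p under 0.05. Over all tested genes 15.8% were called, and 3366 of 10874 had such an unadjusted p. These 7 genes are too few for a comparison with those shares. With the replicate block 1 of the 7 was called lower. The list median was -0.04. Tead2 measured 0.19 (SE 0.13, limma adjusted p = 0.365) and Tead3 -0.28 (SE 0.16, limma adjusted p = 0.280). Vgll2, Vgll3 and Vgll4, which encode vestigial-like cofactors that compete with YAP and TAZ for TEAD factors, measured 0.02, -0.04 and -0.05, each with a limma adjusted p above that of Tead2. Without shLSD1 replicate 2 Vgll3 measured -0.17. Smarcc1, a chromatin remodelling subunit, measured -0.23 (limma adjusted p = 0.0687) and the coactivator gene Ncoa3 0.12 (limma adjusted p = 0.531). Smarcc1 was the gene called lower with the replicate block, and it ranged from -0.30 to 0.09 over the alternatives.

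Other published YAP-TEAD target genes went both ways. Of 19 listed genes 18 were tested, 4 fell and 2 rose, so that 33.3% were called, against 15.8% of all tested genes, and the median was -0.22. Besides Amotl2 and Lats2, the genes that fell were Gadd45a, a growth arrest and DNA damage gene, at -0.26 (SE 0.06, limma adjusted p = 0.0261), and the RNA-binding protein gene Rbms3, named after its value was seen, at -0.23 (SE 0.06, limma adjusted p = 0.0473). Nt5e, which encodes the ecto-nucleotidase CD73, rose with 370.0 and 262 in shLSD1, against 114 and 113 in shControl. Its groups were far apart, at a log2 difference of 1.46 (SE 0.20, limma adjusted p = 0.00342), and the call was made in every alternative in which it was tested. The receptor tyrosine kinase gene Axl rose by 0.26 (SE 0.05, limma adjusted p = 0.0106). Gadd45a, Rbms3 and Axl were not called when either shControl array or the intensity trend was left out.

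**Figure D4:**
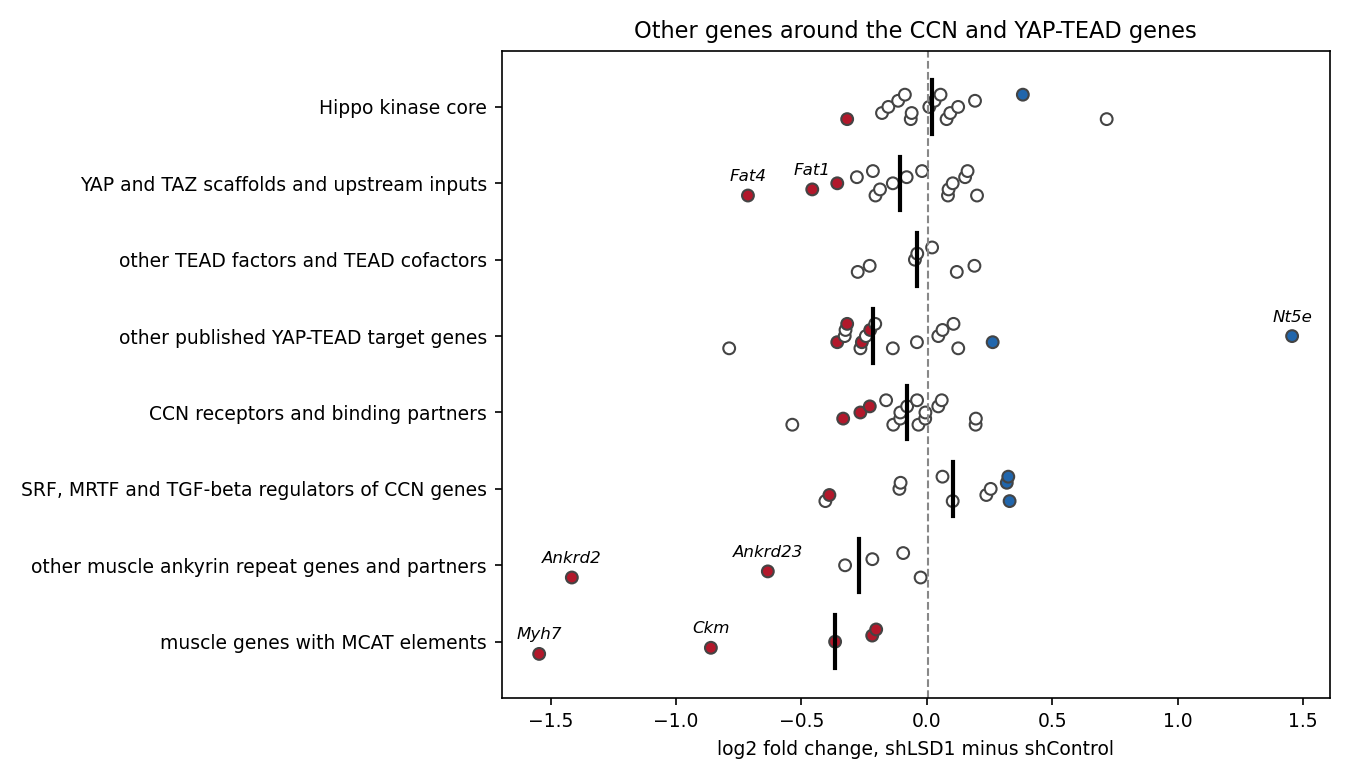
Log2 fold change (shLSD1 minus shControl) of the tested genes in 8 lists around the CCN and YAP-TEAD genes, which do not contain the 10 genes; red points fell, blue points rose, open points were not called, black bars are list medians and the dashed line is the median of all tested genes. The Hippo kinases and TEAD cofactors are centred near 0, while all 5 MCAT-element genes lie below it.

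CCN proteins act through integrins, other receptors and matrix partners. All 17 listed genes for these were tested, and 3 fell and 0 rose. That is 17.6% called, near the 15.8% of all tested genes, with a median of -0.08. Fibronectin (Fn1), a matrix ligand that Ccn2 binds, had signals of 24597 and 24558 in shLSD1, against 29819 and 29259 in shControl, a log2 difference of -0.27 (SE 0.04, limma adjusted p = 0.00344). The endocytic receptor gene Lrp1 fell by 0.33 (SE 0.07, limma adjusted p = 0.0135) and the proteoglycan gene Dcn, whose product binds Ccn2, by 0.23 (SE 0.06, limma adjusted p = 0.0345). None of these 3 was called when either shControl array or the intensity trend was left out, or when probe sets were averaged. Bmp4, a growth factor that Ccn2 binds, measured -0.54 (SE 0.19, limma adjusted p = 0.0984).

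SRF with its MRTF coactivators, and TGF-beta signalling, are known regulators of CCN genes. Of 11 tested genes of these pathways, which include the inhibitor gene Smad7, 3 rose and 1 fell, with a median of 0.10. Over all tested genes 8.75% rose and 7.09% fell. The TGF-beta receptor gene Tgfbr1 and the signal transducer gene Smad2 rose by 0.33 (SE 0.07, limma adjusted p = 0.0162) and 0.32 (SE 0.07, limma adjusted p = 0.0193). The MRTF gene Mrtfb, a coactivator of SRF, rose by 0.32 (SE 0.08, limma adjusted p = 0.0313). When its probe sets were averaged Tgfbr1 measured -0.18, and all 3 calls were lost without either shControl array. The ligand gene Tgfb3 fell to 2430.2 and 2488 in shLSD1, against 3024 and 3428 in shControl (log2 fold change -0.39, SE 0.07, limma adjusted p = 0.00989). That call was absent when shControl replicate 2 or the intensity trend was left out. Tgfb1 measured -0.40 (SE 0.12, limma adjusted p = 0.0612), and Srf, the factor that binds the CArG box, measured -0.11 (SE 0.08, limma adjusted p = 0.402).

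Muscle genes whose promoters are known for MCAT elements, the sites that TEAD factors bind, all fell. The list has 5 genes, and 5 fell and 0 rose, with a median of -0.37. Over all tested genes 7.09% fell and 15.8% were called. With no filter 3 of the list fell, and with no intensity trend 1 fell. They are genes of differentiated muscle, and the muscle markers given above, of which 6 of 8 fell, move with them. Ckm is in both lists. The actin genes Acta1 and Acta2 fell by 0.37 (SE 0.05, limma adjusted p = 0.00414) and 0.20 (SE 0.05, limma adjusted p = 0.0233). The cardiac troponin T gene Tnnt2, named after its value was seen, fell by 0.22 (SE 0.05, limma adjusted p = 0.0303). The slow myosin gene Myh7 measured -1.55 (SE 0.08, limma adjusted p = 6.02e-05) and the muscle creatine kinase gene Ckm -0.86 (SE 0.12, limma adjusted p = 0.00289). Acta1, Acta2 and Tnnt2 were not called when either shControl array or the intensity trend was left out, and Ckm was not called when the trend was left out. In the list of muscle ankyrin repeat genes and their partners, 2 of 6 tested genes fell, which were Ankrd2 and Ankrd23, and 0 rose. That is 33.3% called, against 15.8% of all tested genes. The partner genes Ttn, for titin, and Mypn, for myopalladin, measured -0.22 (limma adjusted p = 0.230) and -0.33 (limma adjusted p = 0.225).

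Over the 8 lists, with each gene counted once, 93 of 101 genes were tested, 17 fell and 6 rose. The share called was 24.7%, against 15.8% of all tested genes, and the median was -0.08. Without shControl replicate 1, 5 fell and 1 rose, and without shControl replicate 2, 4 fell and 1 rose. The genes called under every alternative in which they were tested were Ankrd2, Fat1, Myh7 and Nt5e, 4 of the 23.

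The 5 tested genes nearest to Ccn2 over the 4 arrays were sought by the Euclidean distance between log2 signals, each centred on the gene's shControl mean. They were Htr2b, a serotonin receptor gene, at 0.25, Golga7b at 0.27, Adam12, a metalloprotease gene active in myoblasts, at 0.28, Kcnj12, a potassium channel gene, at 0.30, and Aspn, a small leucine-rich proteoglycan gene, at 0.34. Adam12 gave 308 and 345 in shLSD1, against 1035 and 1018 in shControl. Their log2 fold changes lay between -1.78 and -1.49, near that of Ccn2 because they were picked for likeness to it. Kcnj12 gave 37.8 and 52.6 in shLSD1, both under the filter signal of 65.6, against 126 and 173 in shControl. It was therefore above the filter only through its shControl arrays. Golga7b gave 56.4 and 83.4 in shLSD1, close to that signal, against 190 and 197 in shControl. Golga7b was not called when either shControl array was left out, nor Kcnj12 when shControl replicate 2 was. For Ankrd1 the nearest genes were Plekha8, Sf3b4, Tmed10, Tsc1 and Nudc, at distances of 0.01 to 0.02, all of them genes with a log2 fold change between -0.02 and -0.01.

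**Figure D5:**
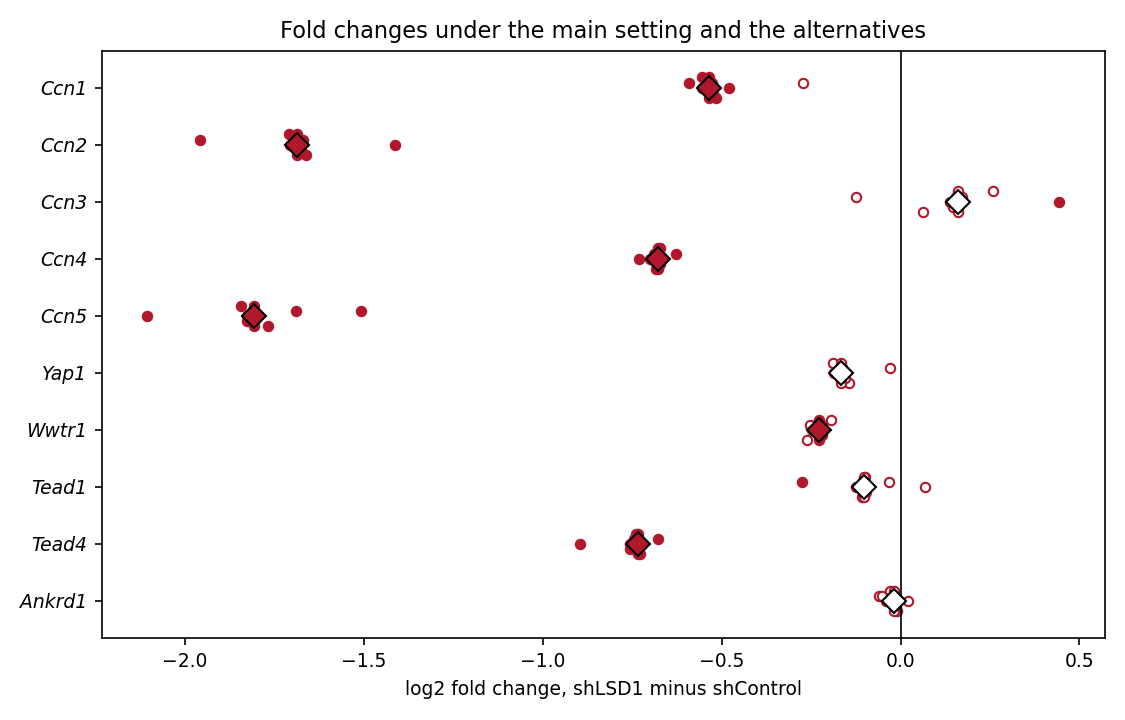
Log2 fold change (shLSD1 minus shControl) of the 10 genes under the main setting (diamonds) and under each alternative in which the gene was tested (circles); filled symbols were called. Ccn2, Ccn4 and Ccn5 are filled throughout, Ccn1, Wwtr1 and Tead4 have open circles, and Ccn3, Tead1 and Ankrd1 cross 0.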

How the data were processed

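The authors deposited one linear signal intensity per probe set and array. Per the submitters' processing notes these come from MAS5 and Affymetrix Expression Console, with versions not given in the sources used here, and per the labels' protocols 250 ng of total RNA gave the biotinylated cRNA hybridised to 3' arrays. MAS5 scales each array by 1 factor, so differences in the shape of the distribution remain, and dim signals are noisy on a log scale. The number of arrays limits the precision.

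Signals under 1 were set to 1 and log2-transformed. Of 45101 probe sets, 34945 had a single symbol, 932 several and 9160 none, and 64 were controls. Each of 18193 genes was represented by its brightest single-symbol probe set, avoiding the "_x_at" type where possible. Genes whose mean log2 signal exceeded 6.03 (a signal of 65.6), the median over all probe sets, were tested with limma 3.58.1 in R 4.3.3 (lmFit, eBayes with an intensity trend, 7.53 degrees of freedom), two-sided, with Benjamini-Hochberg adjustment over 10874 genes and a threshold of 0.05. The procedure was tested on simulated data. Log2 fold changes are shLSD1 minus shControl. Named are the 10 genes, Kdm1a, 9 fixed pathway genes, in each list up to 4 genes with the lowest adjusted p, and the 5 genes nearest to Ccn2 and to Ankrd1, with other names marked where they occur. Genes and lists were chosen with earlier results of these data known. Roles are general knowledge. Results were recomputed with each array left out, with the replicate number as a block, with log2(signal + 32), after median centring or quantile normalization, with no or a stricter filter, with a robust or an untrended variance, and with probe sets averaged per gene. Listing each probe set by itself was added after seeing the data. Promoter sequences are from RefSeq (GRCm38.p6), searched in Python 3.11.15. Figures were drawn with matplotlib 3.10.9.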

Additional observations from a re-analysis of the deposited data

How the results depend on the processing

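The direction of every called gene among the 10 was kept in each alternative, and the number of them that fell ranged from 4 to 7. The number that rose was 0, or between 0 and 1 when an array was left out, the 1 being Ccn3 without shLSD1 replicate 1. One probe set of Ccn1, listed by itself (chosen after seeing the data), had a log2 fold change of 0.051. Among other named genes, Tgfbr1 measured -0.18 with the mean of its probe sets. Over all genes, leaving out an array gave 228 to 1040 genes that fell and 347 to 1151 that rose, no intensity trend gave 262 and 377, and the mean of probe sets gave 407 and 493. Over the 8 lists, leaving out an array gave 4 to 22 genes that fell and 1 to 9 that rose, no trend gave 4 and 2, and the mean of probe sets gave 9 and 1. No filter gave 10 that fell. The causes were not tested. Same-numbered arrays share only a number: their deviations correlated at 0.00288 over genes. With the replicate number as a block, 985 genes fell and 1236 rose, and 6 of the 10 genes fell. Median centring put 51.4% of all calls on the lower side, against 44.8% without it. Kdm1a was called in all alternatives. Signal over background limits the dim genes, such as Ccn6, which lay below the filter.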
